A study of Rattus norvegicus with 6 samples.

Results

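The enzymes that turn squalene epoxide into lanosterol, and lanosterol into cholesterol, were followed in the livers of male Wistar rats given a control or a low-protein diet. The genes were chosen by name: every probe set was taken whose platform annotation gives exactly 1 gene symbol, where that symbol is Lss, Cyp51, Tm7sf2, Msmo1, Nsdhl, Hsd17b7, Ebp, Sc5d or Dhcr7. This gave 15 probe sets for 9 genes, out of 31042 probe sets and 14217 genes tested, and no member was lost to a filter on low values because none was applied. Of the 9 genes, 5 had several probe sets and 4 had 1. The list of names was drawn up with earlier results of these data known, which limits comparisons of the 9 with all genes.

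Liver RNA was hybridised to 6 Affymetrix expression arrays, 3 for the control diet (15P) and 3 for the low-protein diet of equal energy content (5P). All rats were Wistar males bought at 6 weeks of age and about 150 g, housed 1 to a cage, and given 4 days on pellets and then 4 days of training to eat the control diet in a daytime window. The assigned diet was offered for 8 hours and food was then withheld for 16 hours before the livers were taken, so the time without food was the same for both groups. Whether every array holds RNA of its own rat is not spelled out in the labels, so p-values here speak only of the scatter among these arrays, which may be technical.

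Cholesterol is built from acetyl-CoA by way of mevalonate, squalene and lanosterol, the first sterol of the route. The later enzymes, which sit in the membrane of the endoplasmic reticulum, strip the surplus methyl groups from lanosterol and then move, add and remove double bonds in the ring system. In hepatocytes most of these genes are targets of SREBP-2, a membrane-bound transcription factor that is released when sterols in that membrane run low, and which usually acts beside the factors NF-Y and Sp1 on promoters near the start site.

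For a view of what the 9 genes share outside the measurements, the 300 bases from 250 before to 50 after the annotated start were read from the RefSeq promoter table (assembly GRCr8), which held all 9. The 4 printed here belong to the genes whose fall passed the test, Cyp51, Tm7sf2 and Ebp, and to Nsdhl, the gene with the smallest change. Capitals mark CCAAT, the NF-Y box, and GGGCGG, an Sp1 box, each on either strand, so that ATTGG and CCGCCC are the same boxes read from the other strand. The regions are chr4:30991443-30991742 (plus strand) for Cyp51, chr1:212789492-212789791 (minus strand) for Tm7sf2, chrX:16971212-16971511 (plus strand) for Ebp and chrX:155817110-155817409 (plus strand) for Nsdhl.
Cyp51: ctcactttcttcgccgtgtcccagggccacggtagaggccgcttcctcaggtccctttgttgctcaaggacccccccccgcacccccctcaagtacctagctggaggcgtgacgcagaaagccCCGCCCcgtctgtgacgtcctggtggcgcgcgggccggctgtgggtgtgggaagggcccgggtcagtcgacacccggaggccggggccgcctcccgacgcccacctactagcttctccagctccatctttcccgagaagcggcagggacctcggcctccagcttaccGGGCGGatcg
Tm7sf2: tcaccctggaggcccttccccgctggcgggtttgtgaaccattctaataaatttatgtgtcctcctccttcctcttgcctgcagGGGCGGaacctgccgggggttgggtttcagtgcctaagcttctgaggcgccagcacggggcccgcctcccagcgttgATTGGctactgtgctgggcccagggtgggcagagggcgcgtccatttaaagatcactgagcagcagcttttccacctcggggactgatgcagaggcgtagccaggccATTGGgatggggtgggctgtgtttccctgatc
Ebp: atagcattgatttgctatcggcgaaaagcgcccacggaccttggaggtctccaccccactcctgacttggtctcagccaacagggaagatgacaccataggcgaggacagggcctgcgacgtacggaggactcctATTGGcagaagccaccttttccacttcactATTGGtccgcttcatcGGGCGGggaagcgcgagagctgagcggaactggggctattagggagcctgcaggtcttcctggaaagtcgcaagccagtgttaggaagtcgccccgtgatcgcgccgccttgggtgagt
Nsdhl: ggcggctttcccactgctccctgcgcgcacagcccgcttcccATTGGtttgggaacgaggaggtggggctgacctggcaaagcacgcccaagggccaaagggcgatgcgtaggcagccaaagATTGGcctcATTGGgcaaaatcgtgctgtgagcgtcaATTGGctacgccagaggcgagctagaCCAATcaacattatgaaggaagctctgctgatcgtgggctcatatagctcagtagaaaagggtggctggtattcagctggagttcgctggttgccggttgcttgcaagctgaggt

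A CCAAT box was present in 7 of the 9 promoters, all but those of Cyp51 and Dhcr7, against 37.5% of all 33469 promoters in the table and 36.8% of the 13242 that belong to genes tested here. At least 2 such boxes were found in 5 of the 9, against 11.2% of all promoters and 12.3% of those of tested genes, and Nsdhl had 5. In each of the 7 a box began between 60 and 120 bases before the start, a window chosen after the positions were seen, as did a box in 12.4% of all promoters and 15.3% of those of tested genes. GGGCGG was found in 8 of 9, all but Nsdhl, against 33.1% of all promoters and 55.7% of those of tested genes. The core of the sterol regulatory element, written as TCAC, any base and CCAC on either strand, was in 0 of the 9 windows and in 1.12% of all promoters (1.07% of those of tested genes), which says only that these letters are not in these windows. Cyp51, which had the largest fall, had no CCAAT box in its window, and Nsdhl, with the most boxes, had the smallest change. A relation between boxes and fold changes was not tested.

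Across the whole table the array medians ran from 33.26 to 34.24. RMA normalizes between arrays, so this likeness says nothing of RNA input or quality. On the first principal component of all probe sets (36.9% of the variance) control replicate 3 scored -10.11, apart from control replicates 1 and 2 at -26.91 and -22.45, while the low-protein arrays ran from 17.34 to 22.59. Among genes, 26 passed at an adjusted p under 0.05, 17 lower and 9 higher, so 34.6% of calls were higher; that share was 26.5% with arrays centred on their medians and 47.4% with arrays centred on their 75th percentiles. Of 41 listed markers of liver cell types, 32 were measured, the largest absolute log2 fold change among them was 0.55, and 0 passed in limma's test (3 had an unadjusted p under 0.05). The 5 measured hepatocyte markers, Alb and Ttr among them, summed to an intensity of 71745 to 75605 in control and 71009 to 72329 in low-protein livers, so the arrays carry the defining transcripts of the labelled tissue.

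All 9 genes had lower mean intensity in low-protein livers, and 3 of them, Cyp51, Tm7sf2 and Ebp, fell past the test (limma, Benjamini-Hochberg adjusted over all genes). Among all genes 0.12% passed in that direction, and 42.4% had a lower mean. No member rose, where 0.0633% of all genes did. The median log2 fold change of the 9 was -0.91, against 0.03 over all genes, and the single values ran from -1.79 in Cyp51 to -0.28 in Nsdhl. On the unadjusted scale all 9 had a p under 0.05 with a lower mean, as did 7.98% of all genes. The 3 control arrays lay above the 3 low-protein arrays without overlap in 7 of the 9, against 10.1% of all genes, the exceptions being Lss and Hsd17b7. In whole-liver RNA, fewer cells of a type and less RNA per cell cannot be told apart.

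The count was lower in each fit with 1 array left out. Whichever of the 6 arrays was left out, 2 members passed instead of 3, Cyp51 and Tm7sf2. Among all 14217 genes, 9 (without control replicate 1) to 37 (without control replicate 3) passed downward in these fits, against 17 with all arrays. Without control replicate 3 the median of the 9 was -1.16, and over the 6 fits it ran from -1.16 to -0.81.

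**Figure D1:**
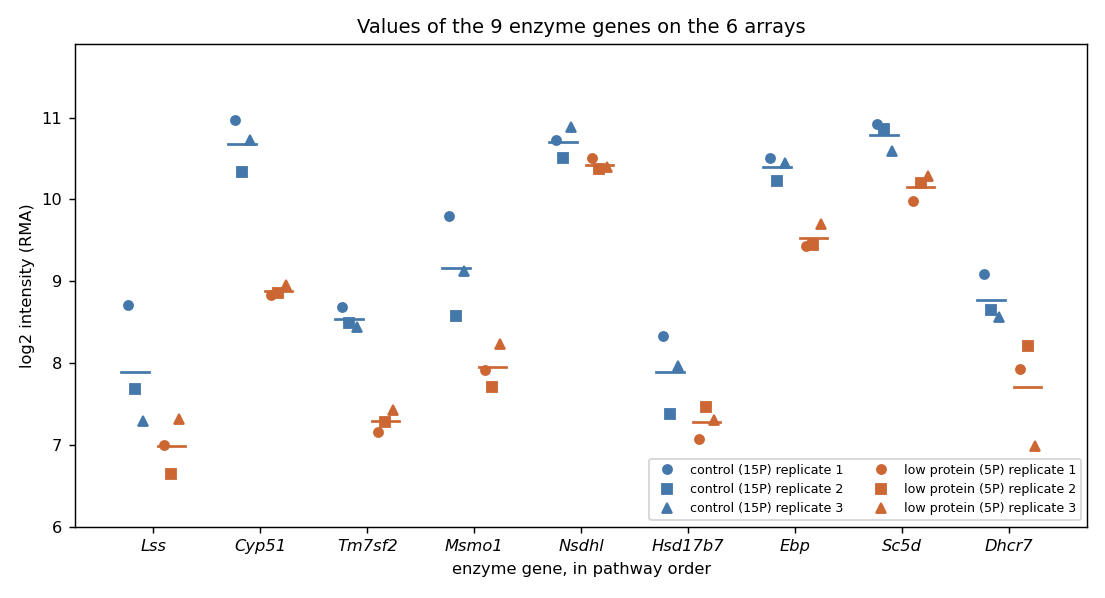
Log2 RMA intensity (y axis) of the 9 enzyme genes in pathway order (x axis) on each of 6 arrays, with blue points for control (15P), orange points for low protein (5P), symbols for the replicate number and bars for the mean of 3 arrays. The 2 diets are separate for every gene except Lss and Hsd17b7, where 1 low-protein array reaches above the lowest control, and levels of different genes are not comparable.

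Lss (gene ID 81681), lanosterol synthase, closes squalene epoxide into the sterol ring system. It read 8.71, 7.69 and 7.29 (log2 intensity) on control replicates 1, 2 and 3 and 6.996, 6.64 and 7.31 on low-protein replicates 1, 2 and 3. Control replicate 1 stood high, and low-protein replicate 3 read above control replicate 3, so the diets overlapped. The log2 fold change was -0.91 (SE 0.339, adjusted p = 0.242, limma), and it did not pass. Without control replicate 1 it was -0.50. The other Lss probe set, of the kind that Affymetrix marks as matching several transcripts of 1 gene, gave -0.50 (SE 0.192).

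Cyp51 (gene ID 25427), the cytochrome P450 that takes the first surplus methyl group off lanosterol, had the largest fall of the 9. It read 10.97, 10.33 and 10.72 in control livers and 8.83, 8.86 and 8.96 in low-protein livers. The 3 low-protein arrays lay within 0.13 of each other, and the lowest control was 1.38 above the highest of them. This was a 3.47-fold fall, from 10.68 ± 0.32 to 8.88 ± 0.07 (SD, n = 3 arrays each), or -1.79 on the log2 scale (SE 0.154), with limma's adjusted p = 0.00728. Ranked by log2 fold change, it was number 10 of 14217 genes from the lowest. Its 2 probe sets were fitted separately and both passed, at -1.79 and -1.71 (adjusted p = 0.00833 for both over all probe sets, limma). Neither passed with log2(value + 16), where 0 of all 31042 probe sets passed.

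Tm7sf2 (gene ID 293688) encodes a sterol reductase that saturates the double bond left by Cyp51. Its single probe set read 8.69, 8.49 and 8.45 in control livers and 7.16, 7.28 and 7.43 in low-protein livers. Both diets were tight, and a gap of 1.02 separated them. The fall was 2.38-fold, from 8.54 ± 0.13 to 7.29 ± 0.14 (SD, n = 3 arrays each), or -1.25 on the log2 scale (SE 0.108, limma's adjusted p = 0.00728).

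Another enzyme of that reduction is Lbr, the lamin B receptor, a protein of the inner nuclear membrane that carries the same reductase activity. Its log2 fold change was 0.02 (SE 0.150, adjusted p = 0.963, limma), with a sign that turned under several settings. Its level limits what can be read from it, since only 18.6% of all genes had a lower mean intensity, while each of the 9 enzymes lay above at least 67.4% of genes. The difference Tm7sf2 minus Lbr on the log2 scale was 4.28, 4.54 and 4.59 in control livers and 3.01, 3.32 and 3.26 in low-protein livers. It changed by -1.27 (SE 0.134), close to the -1.25 of Tm7sf2 alone, and so adds little to it. The exact two-sided permutation test gave p = 0.1, which is the smallest p that 3 arrays against 3 allow, and an adjusted p = 0.4 over the 4 pairs compared.

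Removal of the remaining methyl groups takes 3 members in turn: Msmo1, the oxidase; Nsdhl, the decarboxylating dehydrogenase; and Hsd17b7, the reductase that closes each round. Msmo1 (gene ID 140910) read 9.80, 8.58 and 9.12 in control livers and 7.92, 7.71 and 8.24 in low-protein livers. The diets were apart by 0.34, but the control arrays were spread over more than 1 log2 unit. The mean went from 9.17 ± 0.61 to 7.96 ± 0.26 (SD, n = 3 arrays each), or -1.21 on the log2 scale (SE 0.283), and did not pass (limma's adjusted p = 0.121). It was -0.89 without control replicate 1 and -1.502 without control replicate 2.

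Nsdhl (gene ID 309262) changed least of the 9. It read 10.73, 10.51 and 10.88 in control livers and 10.51, 10.38 and 10.40 in low-protein livers, and the lowest control stood only 0.005 above the highest low-protein array. Its log2 fold change was -0.28 (SE 0.111, adjusted p = 0.269, limma), and the second probe set gave -0.27. Ranked by log2 fold change, it was number 1135 of 14217 genes from the lowest.

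Hsd17b7 (gene ID 29540) read 8.33, 7.38 and 7.96 in control livers and 7.08, 7.46 and 7.31 in low-protein livers. Low-protein replicate 2 read above control replicate 2, so the diets overlapped. The log2 fold change was -0.61 (SE 0.224, adjusted p = 0.241, limma), with -0.58 from the second probe set, and it was -0.39 without control replicate 1. Nsdhl and Hsd17b7, whose proteins belong to the same dehydrogenase superfamily, differed in log2 fold change by 0.33 (SE 0.264, exact two-sided permutation p = 0.5, adjusted 0.667), and this difference ran from 0.12 without control replicate 1 to 0.49 without control replicate 2.

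**Figure D2:**
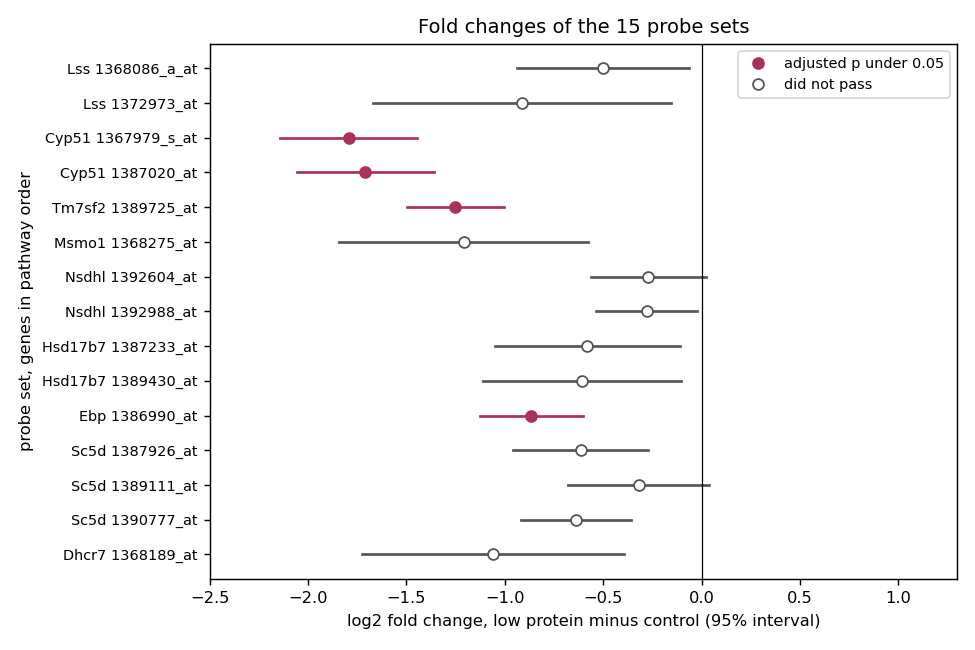
Log2 fold change (x axis, low protein minus control) of each of the 15 probe sets in pathway order (y axis), with limma's 95% interval as a line; filled red points passed at an adjusted p under 0.05 over all probe sets and open grey points did not. All 15 lie below 0, the 4 filled points are both Cyp51 probe sets, Tm7sf2 and Ebp, and the intervals of 1 Nsdhl and 1 Sc5d probe set reach above 0.

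The last members rework the double bonds of the ring. Ebp (gene ID 117278), the isomerase that shifts a ring double bond, read 10.51, 10.23 and 10.44 in control livers and 9.43, 9.45 and 9.70 in low-protein livers. The diets were 0.53 apart, wider than the spread within either. The fall was 1.82-fold, from 10.39 ± 0.15 to 9.53 ± 0.15 (SD, n = 3 arrays each), or -0.87 on the log2 scale (SE 0.115, limma's adjusted p = 0.0374). The call was lost without any one array (adjusted p = 0.0522 to 0.131), with 75th-percentile centring (0.0512) and with log2(value + 16) (0.0577), in an overall range of 0.0271 to 0.131.

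Sc5d (gene ID 114100), the desaturase that adds the next double bond, had 3 probe sets. The brightest of them read 10.92, 10.86 and 10.60 in control livers and 9.98, 10.20 and 10.28 in low-protein livers, without overlap. Its log2 fold change was -0.64 (SE 0.122) and did not pass (adjusted p = 0.0866, limma). The other probe sets gave -0.62 and -0.32, and in the latter low-protein replicate 3, at 9.60, read above all 3 controls. Msmo1 and Sc5d, which belong to the same family of membrane oxidases, differed in log2 fold change by -0.57 (SE 0.373, exact two-sided permutation p = 0.3, adjusted 0.6), and this difference ran from -0.90 without control replicate 2 to -0.32 without control replicate 1.

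Dhcr7 (gene ID 64191), the reductase of the last ring double bond, read 9.09, 8.65 and 8.57 in control livers and 7.93, 8.21 and 6.98 in low-protein livers. Low-protein replicate 3 stood 0.95 below the nearest array of its diet, and the diets did not overlap. The log2 fold change was -1.06 (SE 0.298) and did not pass (adjusted p = 0.16, limma). Without low-protein replicate 3 it was -0.70. Tm7sf2 and Dhcr7, which share a reductase family, differed in log2 fold change by -0.19 (SE 0.443, exact two-sided permutation p = 0.8, adjusted 0.8), and the sign turned to 0.064 without low-protein replicate 2.

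Over all 15 probe sets, 4 passed downward and 11 did not pass, where 0.0966% of all probe sets passed in that direction. With log2(value + 16) in place of log2(value), 0 of the 15 passed and 11 had an unadjusted p under 0.05 (limma), so that all 4 calls were lost. Under that setting 0 of all 31042 probe sets passed, so the loss was not particular to the members. Groups did not overlap in 10 of the 15, against 9.12% of all probe sets. Within a gene the probe sets differed in log2 fold change by at most 0.41, in Lss, and none differed in sign. Probe sets of a gene share the same RNA and are not independent samples. Along the pathway the fold changes followed no single order: the lowest values were those of Cyp51, Tm7sf2 and Msmo1, and the next step, Nsdhl, had the value closest to 0. Dhcr7 at the end was again past -1, though at -0.70 without low-protein replicate 3, and did not pass.

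The arrays also differed within a diet. Averaged over the 9 genes, each centred on its own mean of 6 arrays, control replicates 1, 2 and 3 stood 0.80, 0.24 and 0.39 above that mean on the log2 scale, and the low-protein replicates stood at -0.52, -0.48 and -0.44. Control replicate 1 was the highest control array for 8 of the 9 genes, all but Nsdhl, and the lowest for none. The SD over the control arrays was larger than that over the low-protein arrays in 6 of the 9, the others being Tm7sf2, Ebp and Dhcr7. The same profile over the mevalonate to squalene epoxide genes was 0.87, 0.20 and 0.53 in control and -0.64, -0.43 and -0.54 in low-protein livers. Control replicate 1 was thus also the highest there.

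**Figure D3:**
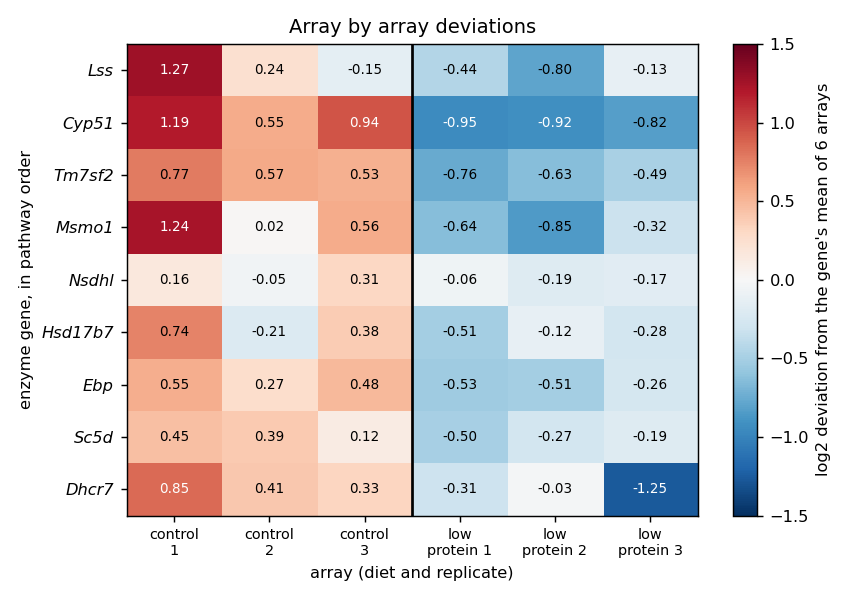
Deviation (colour and printed value, log2) of each enzyme gene (y axis, pathway order) on each array (x axis) from that gene's mean over 6 arrays; red is above and blue below the mean. Control replicate 1 holds the deepest reds, with 1.27 in Lss and 1.24 in Msmo1, and the single deepest blue is Dhcr7 on low-protein replicate 3 at -1.25.

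Over the 36 pairs of members, Pearson's r across the 6 arrays had a median of 0.80 and ran from 0.49 to 0.99, which includes the difference between diets that all share. Cyp51 lay closest to the mean profile of the 9, of which each member is a part (r = 0.99), and Nsdhl and Dhcr7 lay farthest from it (r = 0.79 and 0.80). Among the genes outside the 9, the 8 most like that profile over the 6 arrays were Ing3, Akr1c1, Zfp384, Adap2, Acat2, Mvk, Dgkq and Arhgap21, with r from 0.989 to 0.996. Acat2 and Mvk are enzymes of the mevalonate stretch, with log2 fold changes of -0.85 and -0.61. The other Mvk probe sets gave -0.09 and -0.28. Akr1c1, an aldo-keto reductase, had -1.06. None of the 8 passed the test over all genes. These are the highest of 14208 correlations on the same 6 arrays and are given as a description.

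Other sterol genes were taken from lists of 48 genes in all, of which 7 were not analysed here. Of 9 measured genes from acetyl-CoA to squalene epoxide, all 9 had a lower mean, 1 fell and 8 did not pass, and their median log2 fold change was -0.90. Among all genes 42.4% had a lower mean and 0.12% fell past the test. Fdps, farnesyl diphosphate synthase, fell by 1.77 (SE 0.142, adjusted p = 0.00728, limma). Idi1, the isopentenyl diphosphate isomerase, had -1.90 (SE 0.288), Fdft1, squalene synthase, -0.90 (SE 0.137) and Mvk, mevalonate kinase, -0.61 (SE 0.112), and these 3 did not pass. Their other probe sets gave -1.92 for Idi1, -0.56 for Fdft1, and -0.09 and -0.28 for Mvk. Idi1 and Fdft1 passed with genes under the median intensity left out (limma's adjusted p = 0.0408 for both). In that fit 48 of 7109 genes passed downward, against 17 of 14217 with none left out. Of 9 measured genes of sterol sensing and uptake, 1 fell, Insig1, which holds the SREBP complex in the endoplasmic reticulum (-1.82, SE 0.131, adjusted p = 0.00533, limma). Stard4, a sterol carrier, had -0.73, Srebf1 -0.67 and Scap, the SREBP escort protein, -0.37, and these 3 did not pass. Their other probe sets gave -0.53 and -1.09 for Stard4, -0.35 for Srebf1 and 0.04 for Scap. Over the list 6 genes had a lower and 3 a higher mean, where 42.4% of all genes had a lower one, and the median log2 fold change was -0.19. Among those outside the rule for named genes, Srebf2, which encodes SREBP-2, had -0.19 from one probe set and 0.16 from the other, and Insig2, the relative of Insig1, had 0.38 and 0.49, and neither gene passed. Erg28, a scaffold of the demethylating enzymes, had -0.48 (SE 0.128), and Faxdc2, a relative of Msmo1, had 0.10, neither of which passed.

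**Figure D4:**
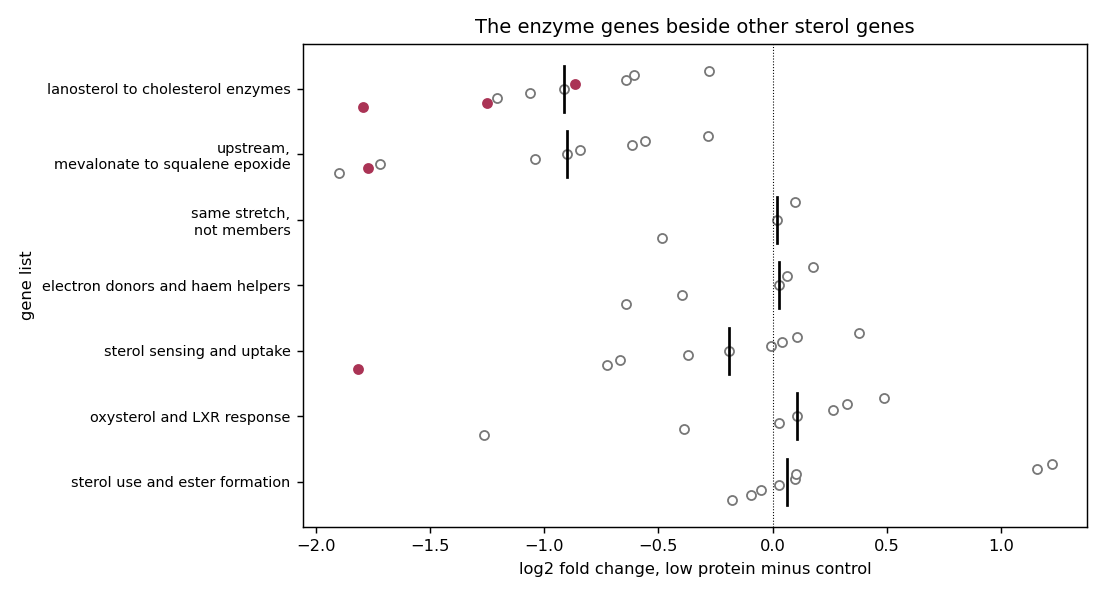
Log2 fold change (x axis, low protein minus control) of every measured gene of the 9 enzymes and of 6 other lists of sterol genes (y axis); filled red points passed at an adjusted p under 0.05 over all genes, open points did not, and black bars are list medians. The enzyme genes and the mevalonate genes lie wholly below 0, with medians of -0.91 and -0.90, and the other lists lie on both sides of 0.

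Markers of other cell types were read beside the enzymes, and none passed. Of 4 measured bile duct markers 3 had a lower mean, with Epcam at -0.55 and Krt19 at -0.39, and their summed intensity was 237 to 392 in control and 190 to 264 in low-protein livers. Red blood cell markers had a higher mean in 3 of 4, with a summed intensity of 2845 to 3100 in control and 4030 to 4294 in low-protein livers. Hbb made up most of that sum. Its log2 fold change was 0.48, beside 0.43 in Alas2, 0.14 in Slc4a1 and -0.06 in Epb42. Kupffer cell markers had a higher mean in 3 of 4, at 1717 to 2170 in control and 2006 to 3120 in low-protein livers. The summed ranges of the diets overlapped for the bile duct and Kupffer cell markers and not for those of red blood cells. Their part in the fold changes of the enzymes was not tested.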

How the data were processed

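Liver RNA was column-purified, labelled from its 3' ends and read on Affymetrix arrays, per the labels' protocols. Each deposited intensity is that of 1 probe set on 1 array, made with RMA per the submitters' processing notes, in a version not given in the sources used here. Since RMA normalizes between arrays, shifts common to most genes are removed. Intensities ran from 3.61 to 21668, were read as linear, and log2 was taken. After 57 control probe sets were left out, 31042 remained: 20826 with 1 gene symbol, 436 with several and 9780 unnamed here. The platform's annotation can be old; gene IDs of 20758 matched RefSeq (GRCr8), which changed 0 symbols. The probe set of highest mean stood for a gene. Low protein was compared with control, 3 arrays each, with limma 3.58.1 in R 4.3.3 (lmFit, eBayes, two-sided), adjusted by Benjamini-Hochberg over all genes or all probe sets, threshold 0.05. Fold changes are low protein minus control, and SE is the moderated one. Arrays give no depth, and their number limits the precision.

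The members and lists were chosen with earlier results of these data known. Named genes are the 9 members, up to 4 genes of smallest p per list, Lbr, and the 8 genes most correlated with the members' mean; Srebf2 and Insig2 were added after their values were seen. The fit was tested on simulated data with 14217 genes. It found 99 of 100 genes with a true log2 change of 1 and 100 of 100 with one of 2, and called 13 unaltered genes. Those data had independent normal noise and more changed genes than passed here. The share found therefore does not measure the power for the members. Msmo1 and Dhcr7, at -1.21 and -1.06, did not pass in the real data. One of 5 planned pairs, and the planned comparison of protein sequences, were not run, as the data they need were not used here. Promoter letters were searched in Python 3.11.15, and figures drawn with matplotlib 3.10.9.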

Additional observations from a re-analysis of the deposited data

How the results depend on the processing

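The 9 members had a lower mean in low-protein livers under all 18 alternatives, and the count that rose was 0 in each. Cyp51 passed under all 18, Tm7sf2 under 17 (adjusted p = 0.0774 with the replicate block) and Ebp under 9. With the replicate block 1 member passed, Cyp51, and 0 of 15 member probe sets in limma's test (14 had an unadjusted p under 0.05), where 6 of all probe sets passed in place of 41. Deviations of arrays that share a number were correlated at -0.09, -0.03 and -0.10, and no control array correlated best with the low-protein array of its own number, so no pairing was assumed. With log2(value + 16), 0 member probe sets passed in limma's test and 11 had an unadjusted p under 0.05, and no probe set of the table passed. Leaving out 1 array gave 2 member genes and 3 probe sets each time, where 9 to 37 of all genes and 13 to 82 of all probe sets passed downward. The medians ran from -1.16 (without control replicate 3) to -0.81 (without control replicate 1). Of the other sterol genes, 4 fell with the filter at the 50th percentile, in place of 2. Under that filter 48 of 7109 genes fell, in place of 17 of 14217. Sult2b1 rose with array weights (1 rise in place of 0), where 13 of all genes rose in place of 9. The count of rises among these sterol genes ran from 0 to 1 over the left-out arrays, where 2 to 17 of all genes rose. Lbr turned to -0.0060 with median centring and -0.027 with quantile normalization, and ran from -0.084 (without control replicate 3) to 0.19 (without control replicate 1) over the left-out arrays; it was also below 0 with control replicate 2 left out (-0.042) and with low-protein replicate 1 or 3 left out (-0.0042 and -0.017). Tm7sf2 minus Dhcr7 ran from -0.62 (without low-protein replicate 3) to 0.064 (without low-protein replicate 2). The causes were not tested. The filter at the 25th percentile removed Lbr, Faxdc2 and Abcg8.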

Other observations

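Genes that serve the sterol enzymes without being particular to them had none past limma's test among 5 measured. At an unadjusted p under 0.05, 1 was lower, as were 7.98% of all genes. Cyb5b, a cytochrome b5 of the outer mitochondrial membrane, stood at -0.64 on the log2 scale (SE 0.214), with -0.29 (SE 0.237) from its other probe set. Cyb5r3, which reduces cytochrome b5, had -0.39 (SE 0.209). Cyb5a, the cytochrome b5 of the endoplasmic reticulum, which feeds electrons to desaturases, had 0.06. Por, which feeds electrons to Cyp51 and other P450 enzymes, had 0.18, with 0.08 from its other probe set. With 1 array left out, Cyb5r3 ran from -0.63 (without control replicate 2) to -0.25 (without control replicate 3) and Por from 0.065 (without control replicate 1) to 0.33 (without control replicate 2). The median of the 5 was 0.03.

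Genes of the oxysterol response and of cholesterol use also had none past limma's test among 7 and 8 measured, with medians of 0.11 and 0.06. At an unadjusted p under 0.05, 2 were lower and 1 higher in the former list, and 1 was higher in the latter. Of all 14217 genes, 1134 were lower and 1185 higher at that threshold. Abca1, the exporter of cellular cholesterol, had -1.26 (SE 0.271, adjusted p = 0.101, limma), with adjusted p from 0.00642 (without control replicate 3, at -1.63) to 0.247 over the alternatives. Its other probe sets gave -0.45, -0.50 and -1.46. Lpcat3 had -0.39, Abcg1 0.27 and Abcg8 0.33. Sult2b1, a sulfotransferase that acts on cholesterol, had 1.22 (SE 0.201, adjusted p = 0.0624, limma), with adjusted p from 0.00984 (without control replicate 3, at 1.47) to 0.173, and its other probe set gave 0.24. Cyp8b1, an enzyme of bile acid synthesis, had 1.16 (SE 0.702), with 0.39 to 1.66 over the alternatives, Cyp27a1 -0.18 and Lcat 0.10.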
